A study of Arabidopsis thaliana with 144 samples.

Results

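The 40 genes described here run the plant cell cycle and copy its DNA. They were listed by locus and function out of 27206 nuclear genes, and all 40 were among the 19321 genes that passed the filter on low counts. By role they fell into 5 genes of cell cycle entry, 12 S-phase genes, 2 MYB3R transcription factors and 21 mitotic genes. RNA was sequenced from whole Arabidopsis seedlings that were phr1 phl1, phf1 or wild-type Col-0. PHR1 and PHL1 are MYB transcription factors of the phosphate (Pi) starvation response, and PHF1 is needed for phosphate transporters to leave the endoplasmic reticulum. Seedlings were germinated for 7 days with sucrose on 5 µM Pi (−P), 1 mM phosphite (+Phi, a Pi analogue that is taken up and not metabolised) or 1 mM Pi (+P). The following 12 days, without sucrose, were on low Pi (50 µM) or on high Pi (625 µM), each with a synthetic community of bacteria (SynCom) or with no bacteria. These factors gave 36 groups of 4 libraries, A1 and A2 from experiment A and B1 and B2 from experiment B. The labels name the mutants without their alleles.

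As background, D-type cyclins bind CDKA;1, and the pair phosphorylates the retinoblastoma-related protein, which then frees E2F factors to switch on genes of DNA synthesis. The origin recognition complex, CDC6 and CDT1 load the MCM helicase ring on replication origins, after which the sliding clamp PCNA and a supply of nucleotides from ribonucleotide reductase serve the replication fork. MYB3R factors act on genes of the G2 and M phases through the mitosis-specific activator (MSA) element, and B-type cyclins with B-type CDKs, Aurora kinases and cytokinesis proteins then carry the cell through division. In a seedling these genes are transcribed mainly in the root and shoot meristems, young leaves and the stomatal lineage. In bulk RNA, fewer dividing cells and less of the RNA per dividing cell cannot be told apart.

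The entry genes were the D-type cyclins CYCD3;1 (AT4G34160) and CYCD3;3 (AT3G50070), the kinase CDKA;1 (AT3G48750) and the transcription factors E2FA (AT2G36010) and E2FC (AT1G47870). The S-phase genes were CDT1A (AT2G31270), CDC6A (AT2G29680) and ORC2 (AT2G37560), which license origins, the helicase subunits MCM2 (AT1G44900), MCM3 (AT5G46280), MCM4 (AT2G16440), MCM5 (AT2G07690), MCM6 (AT5G44635) and MCM7 (AT4G02060), the clamps PCNA1 (AT1G07370) and PCNA2 (AT2G29570), and TSO2 (AT3G27060) of ribonucleotide reductase. The MYB3R genes were MYB3R4 (AT5G11510) and MYB3R1 (AT4G32730). The mitotic genes were the cyclins CYCA1;1 (AT1G44110), CYCB1;1 to CYCB1;4 (AT4G37490, AT5G06150, AT3G11520, AT2G26760) and CYCB2;1 to CYCB2;4 (AT2G17620, AT4G35620, AT1G20610, AT1G76310), with the kinases CDKB1;1 (AT3G54180), CDKB1;2 (AT2G38620), CDKB2;1 (AT1G76540) and CDKB2;2 (AT1G20930). They also held the spindle genes AUR1 (AT4G32830), AUR2 (AT2G25880) and TPX2 (AT1G03780), the anaphase activators CDC20.1 (AT4G33270) and CDC20.2 (AT4G33260), and the cytokinesis genes KNOLLE (AT1G08560), HINKEL (AT1G18370) and PLEIADE (AT5G51600).

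The sequences that E2F and MYB3R factors are known to bind were searched in the 250 bases before and 50 bases after each annotated start, on both strands of the RefSeq TAIR10.1 genome. The E2F forms searched were TTTCCCGC, TTTCGCGC, TTTGCCGC and TTTGGCGC, and at least 1 of them stood in 338 of 19302 windows of tested genes, or 1.75%. They stood in 6 of the 12 S-phase windows, in 1 of the 5 entry windows (CYCD3;3) and in 0 of the 21 mitotic windows. The 6 S-phase stretches are shown because they belong to the helicase subunits MCM2 to MCM6 and to ORC2, genes whose values are compared between low and high Pi further on. Each is written from 20 bases before its site, on the strand of the gene, with the E2F form in capitals.
ORC2, chr2:15758572-15758600, plus strand: ggaaagacgaagaaaaacgcGCGGGAAAa
MCM2, chr1:16970180-16970213, plus strand: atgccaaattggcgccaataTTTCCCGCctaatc
MCM3, chr5:18773849-18773896, minus strand: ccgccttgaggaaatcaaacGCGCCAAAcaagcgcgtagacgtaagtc
MCM4, chr2:7130737-7130784, minus strand: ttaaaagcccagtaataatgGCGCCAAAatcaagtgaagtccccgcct
MCM5, chr2:3527501-3527539, minus strand: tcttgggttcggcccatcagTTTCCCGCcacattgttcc
MCM6, chr5:18010686-18010733, minus strand: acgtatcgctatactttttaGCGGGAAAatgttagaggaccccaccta
The site lay 9 bases before the start in ORC2, 14 in MCM2, 19 in MCM5, 35 in MCM4, 46 in MCM6 and 170 in MCM3. No such letters stood in the windows of CDT1A, CDC6A, MCM7, PCNA1, PCNA2 or TSO2.

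The MSA core AACGG is 5 letters long and stood in 5028 of the 19302 windows, or 26.1%, and at least 2 copies stood in 5.43%. It stood in 16 of the 21 mitotic windows, and 12 of these held at least 2 copies, against 4 of the 12 S-phase windows with any copy. The longer form CNAACGG, which contains the core, stood in 12 of the 21 mitotic windows, 1 of the 12 S-phase windows and 6.1% of all windows. The B-type cyclins with copies before the start are shown, because copies are repeated within their windows and some pairs share longer runs around them. Of the other B-type cyclins, the window of CYCB2;4 held 0 copies, and the 2 copies of CYCB1;4 lay from the start onward. KNOLLE is shown because its library values are given further on. Its window held 3 copies, of which 1 lay before the start, and only bases before the start are printed.
CYCB1;1, chr4:17624309-17624496, minus strand: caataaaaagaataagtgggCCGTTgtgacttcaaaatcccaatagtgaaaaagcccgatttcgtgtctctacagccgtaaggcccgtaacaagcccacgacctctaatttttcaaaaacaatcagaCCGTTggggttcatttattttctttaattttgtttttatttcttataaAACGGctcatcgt
CYCB1;2, chr5:1861704-1861866, minus strand: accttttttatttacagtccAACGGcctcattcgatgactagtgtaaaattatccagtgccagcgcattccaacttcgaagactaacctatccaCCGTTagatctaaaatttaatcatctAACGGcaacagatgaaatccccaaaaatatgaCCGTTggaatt
CYCB1;3, chr3:3627274-3627357, minus strand: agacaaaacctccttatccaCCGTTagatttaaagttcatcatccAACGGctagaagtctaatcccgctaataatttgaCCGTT
CYCB2;1, chr2:7663898-7664023, plus strand: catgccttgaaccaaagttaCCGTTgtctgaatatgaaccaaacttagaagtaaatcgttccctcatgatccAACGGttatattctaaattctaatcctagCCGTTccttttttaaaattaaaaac
CYCB2;2, chr4:16901404-16901518, plus strand: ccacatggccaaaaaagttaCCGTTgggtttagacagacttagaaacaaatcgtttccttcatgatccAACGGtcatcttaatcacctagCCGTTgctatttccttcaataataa
CYCB2;3, chr1:7137851-7137962, minus strand: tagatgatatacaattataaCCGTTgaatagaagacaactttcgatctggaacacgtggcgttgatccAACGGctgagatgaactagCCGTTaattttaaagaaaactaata
KNOLLE, chr1:2711001-2711032, minus strand: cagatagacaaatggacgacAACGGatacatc
Capitals mark the core as AACGG or, on the other strand, CCGTT. CYCB1;2 and CYCB1;3 share the run tatccaCCGTTagat of 15 bases, CYCB2;1 and CYCB2;2 share tcatgatccAACGGt of 15 bases, and the 3 CYCB2 stretches share tgatccAACGG of 11 bases. A match of letters is a description of the promoter and does not show that a factor binds there.

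Libraries held between 0.72 and 10.7 M counts (median 4.1 M), of which the 40 genes took 217 to 5807 counts (median 1689). At this depth a library with few counts on a gene gives a coarse value for it, and ORC2 averaged 0.798 CPM (its counts scaled to the normalised library size). PHR1 averaged 30.4 ± 9.18 CPM in phr1 phl1, against 62 ± 11.8 CPM in phf1 and 69 ± 12.6 CPM in Col-0 (SD, n = 48 each). PHL1 was higher in phr1 phl1, at 70.1 ± 39.9 CPM, than in phf1 (14.8 ± 9.51 CPM) or Col-0 (15.5 ± 8.1 CPM), and gene counts do not show where in the gene the reads lie, so they do not check this allele. PHF1 averaged 19.1 ± 11.1 CPM in phf1 and 27.2 ± 27.8 CPM in Col-0. By the balance of PHR1 and PHL1, 4 libraries were in doubt. A1 of phr1 phl1 with SynCom at high Pi after +P had 74.5 CPM of PHR1 and 18.3 CPM of PHL1. A1 of Col-0 without bacteria at low Pi after +Phi had 25.55 and 68.55 CPM, so these 2 did not match their genotype label. In phf1 with SynCom at high Pi, A2 after −P had 53.4 and 74.7 CPM and A1 after +Phi 49.2 and 31.6 CPM. These were mixed, with PHR1 nearer the phf1 than the phr1 phl1 mean and PHL1 above the phf1 mean. The largest residual spread was in B1 of Col-0 without bacteria at high Pi after +P, and the lowest depth in A1 of phr1 phl1 with SynCom at low Pi after −P. All were kept under their labels, and counts that moved by over 1.5 times without these 4 or 6 libraries are given where they occur. Library numbers are the only record of separate samples within an experiment, so p-values measure the spread between these libraries, which may be partly technical. The SD of log2 CPM between the 2 libraries of a group within 1 experiment had a median of 0.39 for entry genes, 0.44 for S-phase genes and 0.46 for mitotic genes. It leaves out the difference between experiments. Reads were not stranded, and 13 of the 40 genes overlap an annotated gene on the opposite strand. How reads in these overlaps were assigned is not given in the sources used here, so the counts of these 13 genes are uncertain there. CDC20.1 and CDC20.2 are near-identical neighbours 619 bases apart, and the split of reads between them is uncertain.

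Levels ranged more widely over the 36 groups for S-phase genes than for the others. The highest group mean was 2.66 to 10.9 times the lowest for S-phase genes (median 3.66), 2.3 to 4.16 times for mitotic genes (median 2.88) and 1.48 to 4 times for entry genes (median 2.67). CDKA;1, the kinase partner of many cyclins, varied least at 1.48 times. ORC2, a subunit of the origin recognition complex, varied most, between 0.174 and 1.9 CPM. Both extremes often fell in the same conditions: 23 of the 40 genes had their highest group mean in phr1 phl1 at low Pi with SynCom, among them 16 of the 21 mitotic genes. Except for CDKA;1, which peaked after +P, these peaks were all in the +Phi group of 4 libraries. The mean mitotic score (defined below) of that condition was 0.81 in +Phi, −0.09 in −P and −0.16 in +P. Of the 40, 22 had their lowest group mean in Col-0 at high Pi with SynCom, among them 8 of the 12 S-phase and 11 of the 21 mitotic genes.

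To follow S phase and mitosis apart, each library was given a score, the mean over the 12 or the 21 genes of log2 CPM minus that gene's own mean. With SynCom at low Pi the S-phase score averaged 0.16 ± 0.5 in phr1 phl1, 0.42 ± 0.26 in phf1 and 0.31 ± 0.32 in Col-0 (SD, n = 12 each). With SynCom at high Pi it averaged −0.11 in phr1 phl1, −0.33 ± 0.42 in phf1 and −0.5 ± 0.36 in Col-0. The low Pi means were higher in each genotype, by 0.26, 0.75 and 0.81 on the log2 scale. In phr1 phl1 this difference was 0.53 in experiment B and 6e-04 in experiment A. The mitotic score with SynCom averaged 0.19 ± 0.72 at low Pi in phr1 phl1, 0.3 ± 0.25 in phf1 and 0.17 ± 0.28 in Col-0, and at high Pi −0.05, −0.15 and −0.41. These are differences of 0.24, 0.45 and 0.58, and that of phr1 phl1 was 0.39 in B and 0.095 in A.

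The experiments parted without bacteria and, in phr1 phl1 at low Pi, also with SynCom. In the latter the mitotic score averaged 0.53 in experiment B and −0.15 in experiment A. In Col-0 at low Pi without bacteria the S-phase score averaged −0.42 in experiment B and 0.5 in experiment A, and in phf1 −0.31 in B and 0.65 in A (n = 6 each). At high Pi without bacteria the phf1 values were −0.14 in B and 0.07 in A. The mitotic score at low Pi without bacteria was −0.45 in B and 0.19 in A for Col-0, but 0.28 in B and 0.05 in A for phr1 phl1. S-phase and mitotic scores stood on the same side of 0 in 24 of the 36 groups, and on opposite sides in the other 12. Both scores had an SD of 0.4 within groups of 4.

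**Figure D1:**
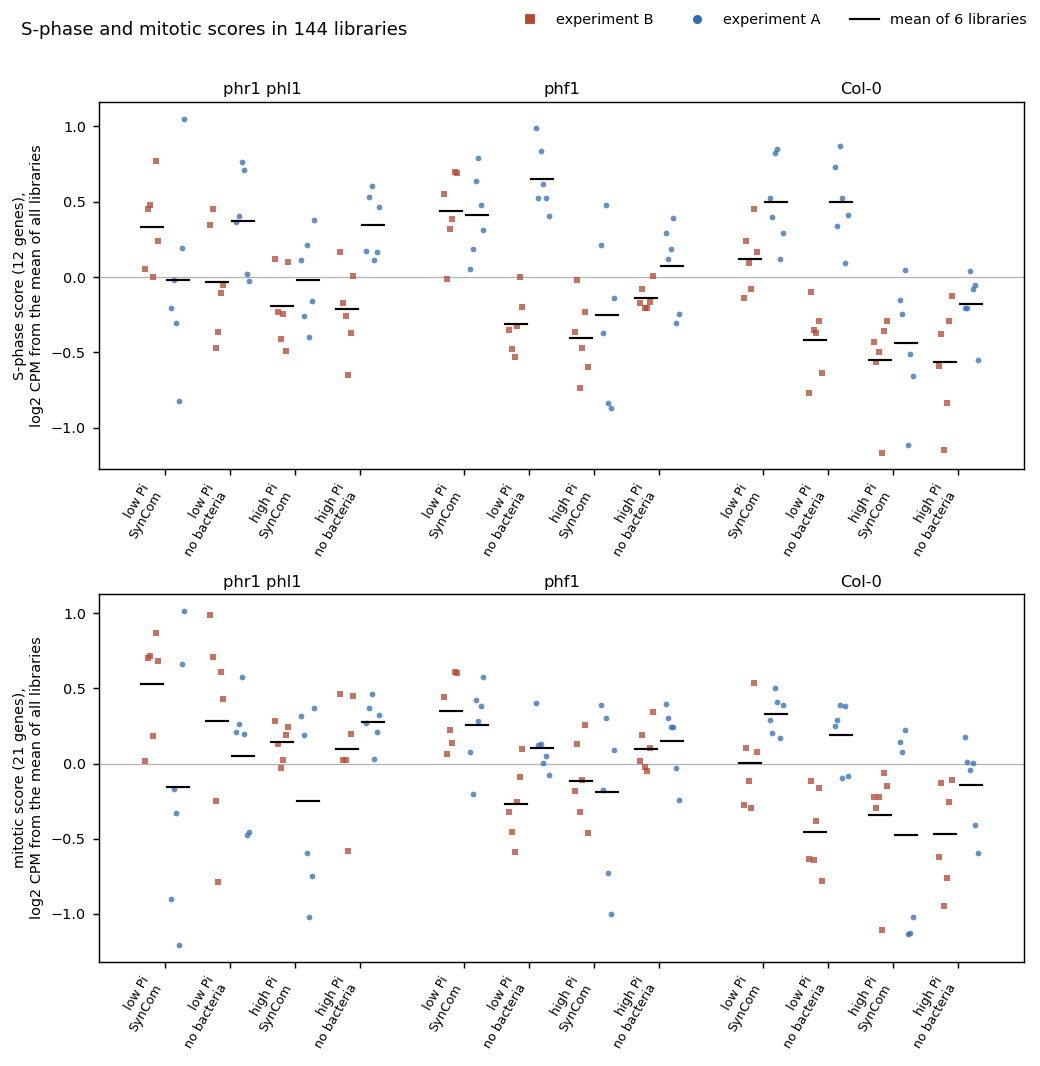
S-phase score (12 genes) and mitotic score (21 genes) of all libraries, in log2 CPM relative to each gene's mean, by genotype, Pi level and SynCom. Squares are experiment B and circles experiment A, with black bars at the mean of 6 libraries. In Col-0 at low Pi without bacteria the S-phase bars stand at −0.42 in B and 0.5 in A, while with SynCom at high Pi they stand at −0.55 in B and −0.44 in A.

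The comparison of low with high Pi in the presence of SynCom asks what Pi shortage does to these genes in colonised seedlings. In Col-0, 24 of the 40 genes rose and 3 fell at low Pi, against 22.2% of all tested genes higher and 21.3% lower. By role, 10 of 12 S-phase genes, 11 of 21 mitotic genes and 3 of 5 entry genes rose. The median log2 fold change was 1.18 for S-phase genes and 0.63 for mitotic genes, while that of all tested genes was 0.02. The 3 genes that fell were CDKA;1, CDC6A and TSO2.

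PCNA1 encodes the sliding clamp that holds DNA polymerase on its template. In Col-0 with SynCom its 12 libraries had 4.78, 7.16 and 12.7 CPM at low Pi (lowest, median, highest), against 0.32, 2.43 and 5.66 CPM at high Pi. The ranges met only at their ends, and the log2 fold change was 1.64 ± 0.29 (SE, n = 12 libraries per arm, adjusted p = 1.66e-06 by edgeR's quasi-likelihood test). MCM5 is a subunit of the replicative helicase. It had 7.35, 12.9 and 21.8 CPM at low Pi and 2.56, 5.72 and 13.9 CPM at high Pi, where the upper high Pi libraries lay within the low Pi range. Its log2 fold change was 1.09 ± 0.22 (adjusted p = 2.06e-05).

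CDT1A, the licensing factor that brings MCM proteins to origins, separated the Pi levels fully. Its 12 low Pi libraries ran from 5.65 to 18.6 CPM (median 9.84) and its 12 high Pi libraries from 1.02 to 4.89 CPM (median 3.18), with no overlap. The log2 fold change was 1.79 ± 0.24 (adjusted p = 2.58e-09), 1.36 in experiment B and 2.19 in experiment A. The helicase subunits rose together, with log2 fold changes of 1.29 ± 0.20 for MCM3 (adjusted p = 5.25e-08), 1.27 ± 0.21 for MCM2 (adjusted p = 3.73e-07) and 1.35 ± 0.23 for MCM6 (adjusted p = 9.51e-07). MCM4, MCM7 and PCNA2, a further copy of the clamp, rose less, by 0.73, 0.71 and 0.57. The opposite-strand genes that overlap MCM7 (437 bases) and PCNA2 (279 bases) also rose, by 0.64 and 0.38. Those overlapping E2FA and CDKB1;1, which rose too, had −1.31 and −0.08 and did not pass. What such overlaps add to these counts was not tested. ORC2 rose by 2.17 ± 0.48 on the log2 scale from very few counts.

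The mitotic genes that rose were of several kinds. CDKB2;2, a B-type kinase of the G2 and M phases, had 13, 16.1 and 26.1 CPM at low Pi and 4.42, 9.31 and 13.1 CPM at high Pi (lowest, median, highest of 12). Only the top of the high Pi range reached the bottom of the low Pi range, and the log2 fold change was 0.90 ± 0.17 (adjusted p = 9.09e-06). CYCB1;1, the B-type cyclin used as a marker of the passage from G2 to M, had 2.28, 5.16 and 6.67 CPM at low Pi and 0.681, 2.96 and 6.33 CPM at high Pi. These ranges overlapped widely, and its log2 fold change of 0.80 ± 0.24 (adjusted p = 0.00504) was 0.23 in experiment B and 1.46 in experiment A.

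Among the other B-type cyclins, CYCB1;4 rose by 1.04 ± 0.23 (adjusted p = 0.000151) and CYCB1;3 by 1.15 ± 0.26 (adjusted p = 0.000197) on the log2 scale. CDKB1;1, the B-type kinase whose expression begins before mitosis, rose by 1.03 ± 0.24 (adjusted p = 0.000205). CYCA1;1, CYCB1;2, CYCB2;2 and CDC20.2 rose too, as did HINKEL and PLEIADE, a kinesin and a microtubule bundler of the phragmoplast, the array that builds the new wall. The 10 mitotic genes that did not pass included KNOLLE, the syntaxin of the cell plate. KNOLLE had 10.9, 21.7 and 25.9 CPM at low Pi and 6.4, 15.6 and 22.5 CPM at high Pi, overlapping over most of their range, with a log2 fold change of 0.45 ± 0.20 (adjusted p = 0.0646). Its gene overlaps AT1G08550 on the opposite strand over 464 bases, and that neighbour fell by 1.01 on the log2 scale in the same comparison. The Aurora kinases AUR1 and AUR2, which act at the spindle, had log2 fold changes of 0.07 and −0.08, and CDKB2;1 had −0.09 (adjusted p = 0.705).

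At the entry to the cycle, CYCD3;3 rose by 0.64 ± 0.15 (adjusted p = 0.000205), the activator E2FA by 0.66 ± 0.22 (adjusted p = 0.011) and E2FC, described as a repressor, by 0.46 ± 0.18 (adjusted p = 0.0337) on the log2 scale. CDKA;1 fell by 0.25 ± 0.06 (adjusted p = 0.000755). CYCD3;1, the D-type cyclin that answers to cytokinin, had 17.4, 24.6 and 29 CPM at low Pi and 7.15, 20 and 27.1 CPM at high Pi. Its ranges overlapped, and its log2 fold change of 0.48 ± 0.21 did not pass (adjusted p = 0.0549), though it passed under DESeq2 size factors, with DESeq2 itself and without the 4 or 6 libraries in doubt. The MYB3R genes did not pass either, with log2 fold changes of −0.48 for MYB3R4 (adjusted p = 0.116) and 0.11 for MYB3R1 (adjusted p = 0.517).

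In 33 of the 40 genes the sign was shared by both experiments. The fold change differed between them in 3 genes (TSO2, MYB3R4 and CDKB1;2), against 3.1% of all tested genes. Mitotic genes had a median log2 fold change of 0.47 in B and 0.82 in A, and S-phase genes 1.21 in B and 1.08 in A.

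Other genes of the same processes were counted beside the 40. Of 19 further tested replication genes 10 rose and 0 fell, among them the DNA ligase LIG1 (0.92), the large ribonucleotide reductase subunit RNR1 (1.06) and CDT1B (1.46, all log2 fold changes). Of 15 other A-, B- and D-type cyclins 5 rose and 1 fell. Of 18 other genes of mitosis and cytokinesis 3 rose and 4 fell, with TANGLED at 0.87 and the phragmoplast orienting kinesin POK1 at −1.35. POK1 had −2.13 in experiment B and 0.11 in experiment A, and the Aurora kinase AUR3 −1.88 in B and 0.13 in A. Of 14 CDK inhibitors and endoreduplication genes 4 rose (KRP3 by 1.3, CCS52A2 by 0.76) and 2 fell (KRP4 by 0.48). Of 9 other E2F, retinoblastoma and MYB3R regulators 2 rose, RBR1 by 0.70 and DEL1 by 0.98, and DEL3 fell by 1.35. Of 4 DNA damage genes only SOG1 rose, by 0.32.

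Markers of parts of the seedling were counted in the same comparison, where 4288 of all 19321 tested genes were higher and 4109 lower. Of 7 tested root tip and ground tissue markers 3 rose (PLT2 by 1.89, PLT1 by 1.13, WER by 1.02) and 1 fell, and of 9 shoot meristem and young leaf markers 3 rose (KNAT1 by 0.97, GRF2 by 0.53, GRF1 by 0.34). The summed shoot list was 168 to 265 CPM at low Pi and 121 to 261 CPM at high Pi with SynCom in Col-0, with 1 of its 11 genes at 0 in all libraries of either condition. The summed root list was 64.8 to 128 CPM at low Pi and 67.7 to 262 CPM at high Pi, with no gene at 0 throughout. The mean at low and at high Pi was 98.9 and 111 CPM for the root list, and 234 and 208 CPM for the shoot list. The lateral root list had 1 tested gene, LBD16, at 0.72 (adjusted p = 0.0516), and of 6 stomatal lineage markers 0 were called, with a median log2 fold change of 0.15. Of 5 leaf photosynthesis markers 4 fell, RBCS1A by 0.59 and RCA by 0.44. Their part in the result for the 40 genes was not tested.

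In phf1 with SynCom, 21 of the 40 genes rose at low Pi and 4 fell, against 19.9% and 20.2% of all tested genes. Of the 12 S-phase genes 10 rose, and CDC6A and TSO2 fell, with a median log2 fold change of 1.09 for S-phase and 0.46 for mitotic genes. PCNA1 had 4.62, 10 and 14.2 CPM at low Pi and 1.35, 3.48 and 6.51 CPM at high Pi, so only the lowest low Pi libraries reached the high Pi range. Its log2 fold change was 1.38 ± 0.27 (adjusted p = 1.39e-05), beside 1.37 ± 0.19 for MCM3 (adjusted p = 7.95e-09), 1.45 ± 0.23 for CDT1A (adjusted p = 2.68e-07) and 1.24 ± 0.20 for MCM2 (adjusted p = 3.57e-07).

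Of the 21 mitotic genes 8 rose in phf1, led by CDKB2;2 (0.71 ± 0.16, adjusted p = 0.000267), CYCB1;4 (0.90 ± 0.23, adjusted p = 0.000824), HINKEL (0.88 ± 0.25, adjusted p = 0.00288) and PLEIADE (0.69 ± 0.20, adjusted p = 0.00425), and 0 fell. CYCB1;1 had 3.3, 5.11 and 7.21 CPM at low Pi and 1.68, 3.79 and 5.78 CPM at high Pi, which overlapped, and did not pass (0.40, adjusted p = 0.159). Of the entry genes E2FA rose by 0.89 ± 0.24 (adjusted p = 0.00146), E2FC by 0.58 ± 0.19 (adjusted p = 0.00997) and CYCD3;3 by 0.35 ± 0.14 (adjusted p = 0.0431), and CDKA;1 fell by 0.28 ± 0.06 (adjusted p = 0.000173). MYB3R4 fell by 1.00 ± 0.25 (adjusted p = 0.000898), with −1.52 in experiment B and −0.10 in experiment A. It was the 1 gene whose fold change differed between experiments, against 1.2% of all tested genes. Without the B1 libraries of all groups 14 of the 40 genes were called in place of 25.

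In phr1 phl1 with SynCom, 11 genes rose and 3 fell at low Pi, against 5.32% and 4.5% of all tested genes. The median log2 fold change was 0.59 for S-phase and 0.38 for mitotic genes. In experiment B alone 15 of the 40 genes rose and 4 fell, against 1035 and 1008 of all 19321 tested genes. In experiment A alone 0 rose and 1 fell, against 513 and 426 of all tested genes. The S-phase median was 0.93 in B and 0.03 in A, and the mitotic median 0.45 in B and 0.22 in A. The sign was shared by both experiments in 27 of the 40 genes. Of 12 S-phase genes 5 rose, led by CDT1A (0.96 ± 0.24, adjusted p = 0.00412), PCNA2 (0.62 ± 0.16, adjusted p = 0.00752) and MCM3 (0.70 ± 0.20, adjusted p = 0.0136), and TSO2 fell by 1.16 ± 0.33 (adjusted p = 0.015). PCNA1 had 0.579, 5.8 and 20.4 CPM at low Pi and 1.34, 3.64 and 6.97 CPM at high Pi, so that the low Pi libraries spread both above and below the high Pi range. Its log2 fold change was 0.82 ± 0.28 (adjusted p = 0.0456), 1.19 in experiment B and 0.04 in experiment A.

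KNOLLE passed in phr1 phl1, with 9.6, 33.7 and 49.7 CPM at low Pi and 8.06, 17.9 and 30.7 CPM at high Pi, overlapping in the lower part. Its log2 fold change was 0.68 ± 0.20 (adjusted p = 0.0191), beside CYCA1;1 at 1.04 ± 0.27 (adjusted p = 0.00609), PLEIADE at 0.78 ± 0.21 (adjusted p = 0.00788) and CYCB1;4 at 0.78 ± 0.24 (adjusted p = 0.0217). Both MYB3R genes fell, MYB3R1 by 0.52 ± 0.13 (adjusted p = 0.00462) and MYB3R4 by 0.79 ± 0.26 (adjusted p = 0.0335). None of the 5 entry genes passed under edgeR at an adjusted p under 0.05, and 1 of 40 genes (MYB3R4) differed between experiments, against 1.17% of all tested genes. The count of 14 called genes was 2 without the B1 libraries, 0 without the B2 libraries and 9 without a term for experiment. In the same comparison 3 of 19 other replication genes rose and 6 of 18 other mitosis genes fell, and of the marker lists 1 shoot, 1 stomatal and 1 photosynthesis gene rose and 0 root tip genes were called.

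**Figure D2:**
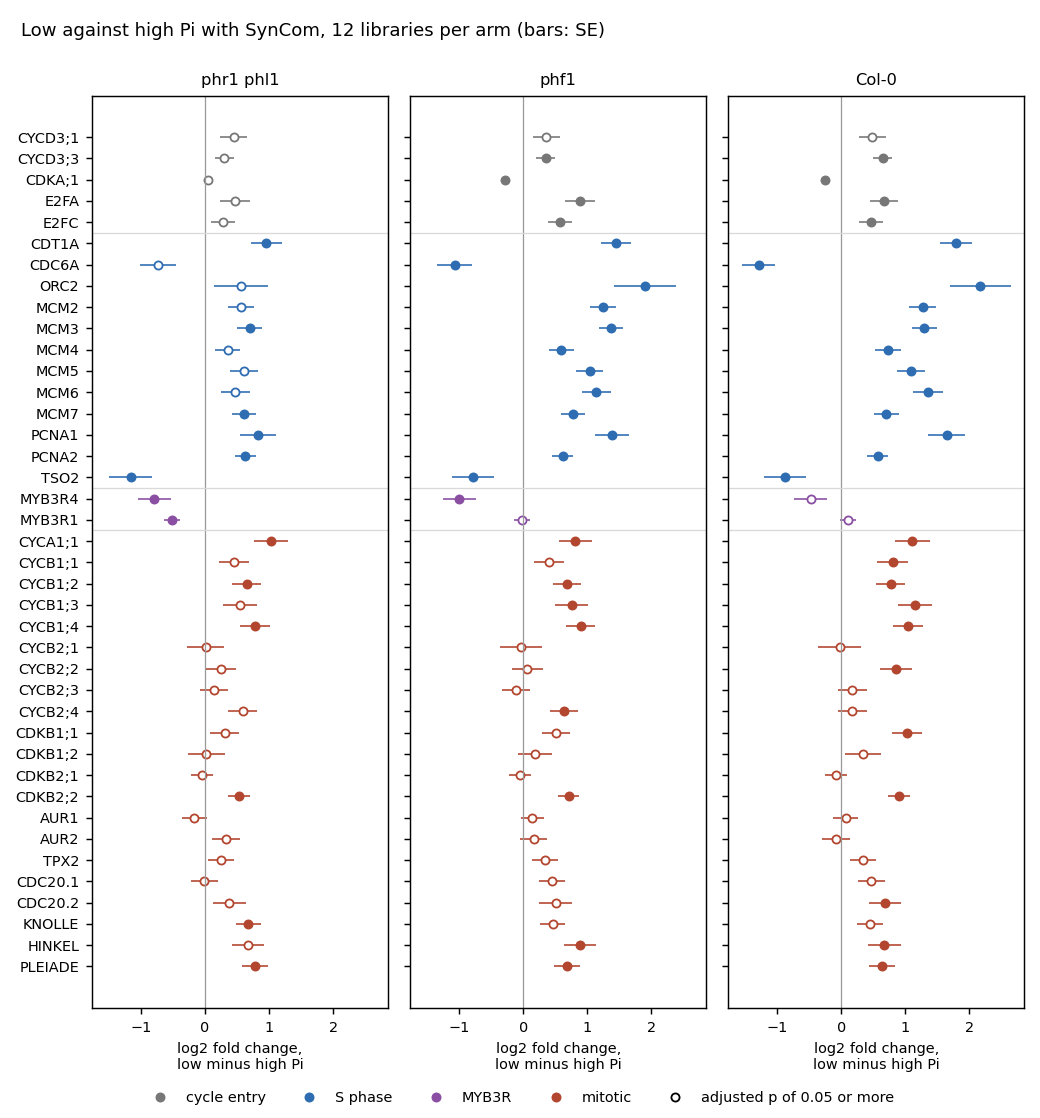
Log2 fold change of each of the 40 genes at low over high Pi with SynCom, with SE, in phr1 phl1, phf1 and Col-0, coloured by role. Filled points passed an adjusted p under 0.05, which 14 genes did in phr1 phl1, 25 in phf1 and 27 in Col-0. CDT1A and the MCM genes stand to the right in all panels, and CDC6A, TSO2 and MYB3R4 to the left.

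The difference between genotypes in this Pi response was tested directly. Between phr1 phl1 and Col-0 it passed in 3 of the 40 genes, 1 higher and 2 lower, against 8.48% and 7.21% of all tested genes. CDKA;1 differed by 0.29 ± 0.09 (adjusted p = 0.0135), MYB3R1 by −0.62 ± 0.18 (adjusted p = 0.0105) and MCM6 by −0.88 ± 0.33 (adjusted p = 0.0498) on the log2 scale. For the other 37 genes a smaller fold change in phr1 phl1 was therefore not shown to differ from that in Col-0, and the 3 became 0 without the A1, the A2 or the B2 libraries and 5 without the B1 libraries. Between phf1 and Col-0 edgeR called 0 of 40 (1 at an unadjusted p under 0.05, and 0 with DESeq2), against 0.00518% and 0.0466% of all tested genes. There 1358 of all 19321 tested genes had an unadjusted p under 0.05.

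Without bacteria, low Pi changed few of the 40 genes when the experiments were pooled. In Col-0 edgeR called 0 (9 at an unadjusted p under 0.05, and 0 with DESeq2), against 0.393% of all tested genes higher and 0.0776% lower, although 34 of 40 fold changes were positive. Among all 19321 tested genes 2437 had an unadjusted p under 0.05 and 10797 a positive fold change. In experiment A alone 10 of the 40 rose, 7 of them S-phase genes, against 4.62% of all tested genes. PCNA1 had 1.54, 2.46 and 3.73 CPM at low Pi and 2.15, 3.16 and 3.82 CPM at high Pi in experiment B, and 5.61, 10.3 and 17.9 CPM at low Pi and 2.35, 4.03 and 6.73 CPM at high Pi in experiment A (n = 6 each). The low Pi libraries thus lay mostly below the high Pi median in B and mostly above the high Pi range in A. Its log2 fold change was −0.27 in B and 1.37 in A, which differed (adjusted p = 0.0453), as did that of TSO2 (−0.42 in B, 1.46 in A, adjusted p = 0.00155), against 1.47% of all tested genes that differed.

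In phf1 without bacteria 1 gene rose and 0 fell, against 3.05% and 1.65% of all tested genes. The gene was TSO2, at 1.14 ± 0.33 on the log2 scale (adjusted p = 0.0265), with −0.23 in experiment B and 1.74 in experiment A. The count was 0 without the A1 or A2 libraries, 2 without the B1 libraries, 2 with DESeq2 and 3 without the 6 libraries in doubt. In experiment A alone 9 genes rose, 6 of them S-phase genes, against 13.3% of all tested genes, and 1 mitotic gene fell. With the experiments pooled the median log2 fold change was 0.32 for S-phase genes and −0.18 for mitotic genes, and 11 of 12 S-phase and 5 of 21 mitotic fold changes were positive. Of the 21 mitotic genes 6 had an unadjusted p under 0.05, and the mitotic score differed by −0.21. Among all 19321 tested genes 4138 had an unadjusted p under 0.05 and 9896 a positive fold change. The fold change of 4 genes (TSO2, PCNA1, MCM3 and CYCD3;3) differed between experiments, a share near the 12.3% of all tested genes. In phr1 phl1 edgeR called 0 (3 at an unadjusted p under 0.05, and 0 with DESeq2), against 0.383% and 0.0362% of all tested genes, with medians of 0.18 for S-phase and 0.08 for mitotic genes. There 1746 of all 19321 tested genes had an unadjusted p under 0.05.

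Whether the Pi response was larger with SynCom than without was tested as an interaction. In Col-0 it passed for 4 genes, 2 higher and 2 lower, against 4.5% and 5.51% of all tested genes, shares close to that background. These were CDT1A (1.36 ± 0.35, adjusted p = 0.00511), TSO2 (−1.72 ± 0.47, adjusted p = 0.00959), CDC6A (−1.22 ± 0.35, adjusted p = 0.0152) and CDKB2;2 (0.71 ± 0.24, adjusted p = 0.0434). The count was 2 without the A2 or B1 libraries, 1 without the B2 libraries and 2 without a term for experiment. In phf1 it passed for 9 genes, 8 higher and 1 lower, against 4.9% and 4.93%. The 8 were CDT1A, MCM2, MCM3 (1.01 ± 0.27, adjusted p = 0.0084), MCM7, CYCB2;4, CDC20.1 (1.08 ± 0.30, adjusted p = 0.0113), HINKEL and PLEIADE, and TSO2 was lower (−1.92 ± 0.46, adjusted p = 0.00317). That count was 15 without the A1 libraries, 5 without A2, 1 without B1 or B2, 3 without a term for experiment and 3 or 4 without the 4 or 6 libraries in doubt. In phr1 phl1 edgeR called 0 (10 at an unadjusted p under 0.05, and 0 with DESeq2), against 0.0725% and 0.0983% of all tested genes. There 1217 of all 19321 tested genes had an unadjusted p under 0.05.

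CDC6A, TSO2 and MYB3R4 had negative fold changes at low Pi with SynCom in all 3 genotypes, and in Col-0 those of TSO2 and MYB3R4 differed between experiments. CDC6A is the ATPase that works with ORC and CDT1 in loading the helicase. In Col-0 with SynCom it had 1.6, 3.29 and 6.55 CPM at low Pi and 7.79, 10.1 and 15.1 CPM at high Pi in experiment B, and 1.09, 2.53 and 3.84 CPM at low Pi and 3.8, 4.55 and 7.93 CPM at high Pi in experiment A (lowest, median, highest of 6). The groups did not overlap in B and barely did in A. CDC6A fell by 1.29 ± 0.26 on the log2 scale in Col-0 (adjusted p = 3.29e-05) and by 1.07 ± 0.28 in phf1 (adjusted p = 0.00108), and had −0.73 in phr1 phl1, which did not pass (adjusted p = 0.0816).

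TSO2 encodes the small subunit of ribonucleotide reductase, which makes deoxyribonucleotides. In Col-0 with SynCom it had 19.5, 22.3 and 33.2 CPM at low Pi and 46.2, 67.5 and 95.2 CPM at high Pi in experiment B, with no overlap. In experiment A it had 23.4, 30.9 and 41.9 CPM at low Pi and 16.3, 24 and 34.7 CPM at high Pi, with wide overlap. The log2 fold change was −1.53 in B and 0.37 in A, a difference of −1.90 (adjusted p = 0.000227), and the pooled value was −0.88 ± 0.33 (adjusted p = 0.024). In phf1 it was −1.11 in B and −0.19 in A, and in phr1 phl1 −1.21 in B and −1.05 in A. TSO2 overlaps AT3G27050 on the same strand by 3 bases.

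MYB3R4, an activator of G2 and M genes, followed TSO2. In Col-0 with SynCom it had 10.5, 12.9 and 16.1 CPM at low Pi and 20.6, 22.4 and 43.5 CPM at high Pi in experiment B, without overlap. In experiment A it had 7.97, 9.41 and 12.3 CPM at low Pi and 4.08, 8.78 and 11.3 CPM at high Pi, which overlapped. Its log2 fold change was −0.96 in B and 0.32 in A, which differed (adjusted p = 0.0022). In phf1 the values were −1.52 in B and −0.10 in A (adjusted p = 0.000713), and in phr1 phl1 −1.15 in B and −0.13 in A (adjusted p = 0.0414).

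**Figure D3:**
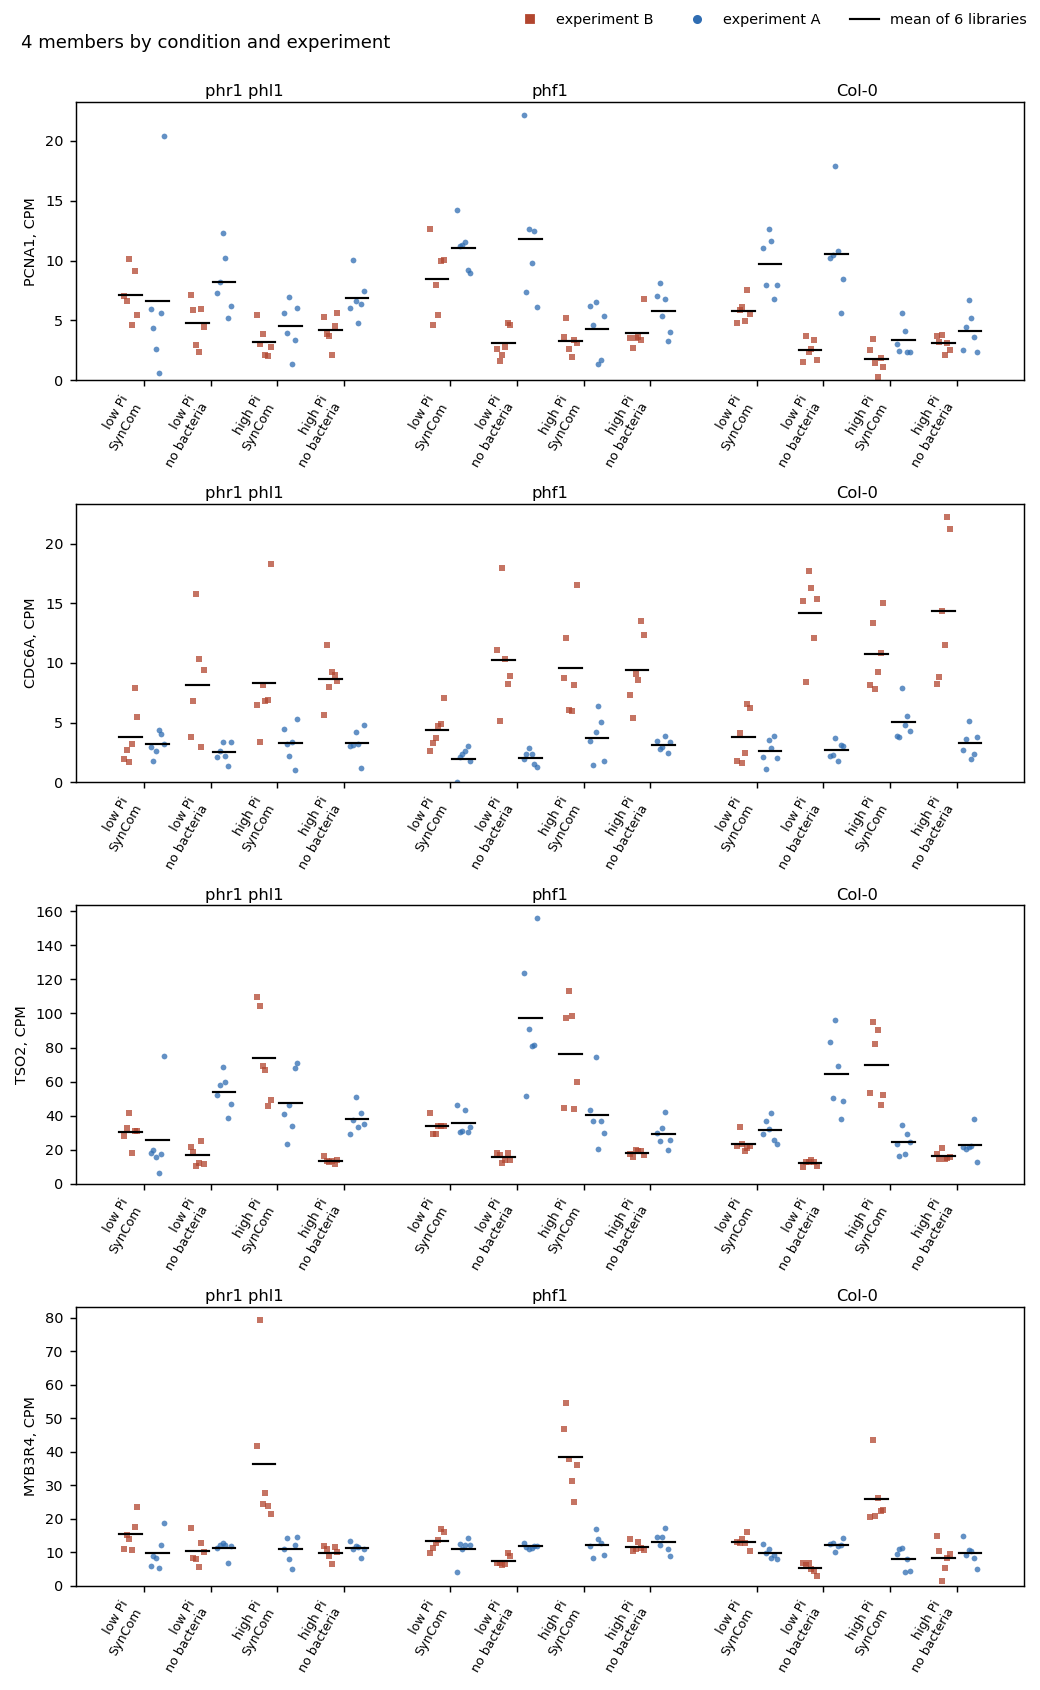
CPM of PCNA1, CDC6A, TSO2 and MYB3R4 in all libraries by genotype, Pi level and SynCom. Squares are experiment B and circles experiment A, with black bars at the mean of 6 libraries. For TSO2 and MYB3R4 the high Pi SynCom libraries of experiment B stand above those of experiment A, and in Col-0 at low Pi without bacteria TSO2 has a median of 12.7 CPM in B and 59.8 CPM in A.

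The comparison of SynCom with no bacteria asks what the community does to these genes at each Pi level. At low Pi in Col-0, 4 genes rose and 2 fell, against 14.2% and 12.9% of all tested genes. CDT1A rose by 1.03 ± 0.22 on the log2 scale (adjusted p = 0.000103), CDKB2;2 by 0.69 ± 0.16 (adjusted p = 0.000603), CYCB1;4 by 0.63 ± 0.22 (adjusted p = 0.0223) and E2FA by 0.53 ± 0.21 (adjusted p = 0.0475). CDC6A fell by 1.17 ± 0.26 (adjusted p = 0.000207) and CDKA;1 by 0.16 ± 0.06 (adjusted p = 0.0459). The count of 6 was 3 without the B1 or the B2 libraries and 4 without the A2 libraries. Of 7 root tip markers 3 rose (PLT2 by 1.45, WER by 0.98, PLT1 by 0.82) and of 9 shoot markers 4 rose (GRF1 by 0.61, CLV1 by 0.55), while of 19 other replication genes 1 rose. The summed shoot list was 168 to 265 CPM with SynCom (mean 234) and 147 to 213 CPM without bacteria (mean 173). The summed root tip list was 64.8 to 128 CPM with SynCom (mean 98.9) and 64.4 to 150.5 CPM without bacteria (mean 99.55). The part of these tissues in the result was not tested.

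The experiments gave different pictures of the same comparison. In experiment B alone 22 of the 40 genes rose with SynCom in Col-0 at low Pi, against 17.6% of all tested genes, and in experiment A alone 2 rose, against 15.7%. The median log2 fold change was 0.72 in B and −0.04 in A for S-phase genes, and 0.51 in B and 0.14 in A for mitotic genes. The fold change differed between experiments in 12 of the 40 genes, a share near the 27.5% of all tested genes, and in 11 of these 12 it was higher in B.

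The 11 genes were TSO2, MYB3R4, PCNA1, ORC2, MCM4, MCM6, CYCD3;1, E2FC, CYCA1;1, HINKEL and PLEIADE. PCNA1 had 4.78, 5.72 and 7.54 CPM with SynCom and 1.54, 2.46 and 3.73 CPM without bacteria in experiment B, with no overlap. In experiment A it had 6.78, 9.51 and 12.7 CPM with SynCom and 5.61, 10.3 and 17.9 CPM without bacteria, so the groups overlapped throughout. Its log2 fold change was 1.18 in B and −0.10 in A (adjusted p of the difference = 0.0109). TSO2 had 19.5, 22.3 and 33.2 CPM with SynCom and 10.2, 12.7 and 13.9 CPM without bacteria in experiment B, with no overlap and SynCom higher. In experiment A it had 23.4, 30.9 and 41.9 CPM with SynCom and 38.3, 59.8 and 96.2 CPM without bacteria, with SynCom lower and overlap only at the edge. The fold change of TSO2 was 0.95 in B and −1.01 in A (adjusted p of the difference = 5.5e-06), and that of MYB3R4 1.39 in B and −0.34 in A (adjusted p of the difference = 1.06e-06).

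CDC6A was the 1 gene of the 12 that was lower in B. In experiment B it had 1.6, 3.29 and 6.55 CPM with SynCom and 8.4, 15.3 and 17.7 CPM without bacteria, and the groups did not overlap. In experiment A it had 1.09, 2.53 and 3.84 CPM with SynCom and 1.75, 2.66 and 3.74 CPM without bacteria, which overlapped throughout. The log2 fold change was −1.99 in B and −0.07 in A, a difference of −1.92 ± 0.44 (adjusted p = 0.000474).

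In phf1 at low Pi 4 genes rose and 1 fell with SynCom, against 9.01% and 8.49% of all tested genes. They were CDC20.1 (0.75 ± 0.21, adjusted p = 0.00744), CDKB2;2 (0.53 ± 0.16, adjusted p = 0.0136), PLEIADE (0.61 ± 0.20, adjusted p = 0.025) and MCM3 (0.55 ± 0.18, adjusted p = 0.0263), and CDC6A fell by 0.80 ± 0.28 (adjusted p = 0.032). The count of 5 was 11 without the A1 libraries, 0 without B1, 2 without B2, 10 with DESeq2 and 3 without a term for experiment. In experiment B alone 24 genes rose, against 17.3% of all tested genes, and in experiment A alone 1 rose, against 11.5%. The fold change differed in 14 genes, all higher in B, a share near the 31.6% of all tested genes, with S-phase medians of 0.94 in B and −0.10 in A.

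PCNA1 in phf1 at low Pi had 4.62, 8.99 and 12.6 CPM with SynCom and 1.61, 2.72 and 4.77 CPM without bacteria in experiment B, which barely overlapped, and 8.92, 11.2 and 14.2 CPM with SynCom and 6.14, 11.1 and 22.1 CPM without bacteria in experiment A, where the SynCom libraries lay inside the other range. TSO2 had 29.1, 33.9 and 41.6 CPM with SynCom and 12.1, 15.5 and 18.2 CPM without bacteria in experiment B. In experiment A it had 30.2, 32.1 and 46.1 CPM with SynCom and 51.7, 86.2 and 156 CPM without bacteria. The TSO2 groups overlapped in neither experiment and stood in opposite order, with log2 fold changes of 1.13 in B and −1.44 in A (adjusted p of the difference = 1.67e-08).

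In phr1 phl1 at low Pi only CDKA;1 rose with SynCom, by 0.21 ± 0.06 (adjusted p = 0.0333), and 0 genes fell, against 2.68% and 1.58% of all tested genes. It was not called without the A1, A2 or B1 libraries or without a term for experiment. The fold change differed between experiments in 7 genes, all higher in B, a share near the 16.1% of all tested genes, and TSO2 had 0.89 in B and −1.28 in A (adjusted p of the difference = 1.93e-05). CDC6A had −1.06 in B and 0.31 in A, a difference that did not pass (adjusted p = 0.0553).

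At high Pi few genes were called, and TSO2 and MYB3R4 rose with SynCom in all 3 genotypes. In phr1 phl1 2 genes rose and 0 fell, against 3.3% and 0.895% of all tested genes. In phf1 2 rose and 1 fell, against 2.43% and 1.88%, and in Col-0 2 rose and 1 fell, against 4.77% and 2.61%. TSO2 had 45.6, 68 and 110 CPM with SynCom and 11.6, 13.5 and 16.2 CPM without bacteria in phr1 phl1 in experiment B, 43.8, 78.4 and 113 CPM against 15.8, 18.4 and 20.06 CPM in phf1, and 46.2, 67.5 and 95.2 CPM against 14.4, 15.3 and 21 CPM in Col-0. All 18 libraries with SynCom lay above all 18 without in that experiment. In experiment A the groups overlapped in each genotype, with medians of 43.7 CPM with SynCom and 36.3 CPM without in phr1 phl1, 37 and 27.7 CPM in phf1, and 24 and 21.6 CPM in Col-0.

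The pooled log2 fold change of TSO2 was 1.37 ± 0.33 in phr1 phl1 (adjusted p = 0.00467), 1.39 ± 0.33 in phf1 (adjusted p = 0.00427) and 1.38 ± 0.34 in Col-0 (adjusted p = 0.00426). The difference between experiments passed in each genotype, with 2.37 in B and 0.27 in A for phr1 phl1 (adjusted p = 8.18e-06), 2.0 and 0.50 for phf1 (adjusted p = 0.00129) and 2.07 and 0.09 for Col-0 (adjusted p = 1.81e-05). MYB3R4 showed the same order. In experiment B it had 21.4, 26.1 and 79.4 CPM with SynCom and 6.54, 10.4 and 11.7 CPM without bacteria in phr1 phl1, 25, 36.9 and 54.5 CPM against 10.4, 11 and 13.9 CPM in phf1, and 20.6, 22.4 and 43.5 CPM against 1.43, 8.85 and 14.8 CPM in Col-0. The lowest of these, 1.43 CPM, was 3 counts in B1 of Col-0 after +P, the library with the largest residual spread. No SynCom library of experiment B overlapped the range without bacteria.

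In experiment A the MYB3R4 groups overlapped in each genotype, and its log2 fold change was 1.77 in B and −0.10 in A for phr1 phl1 (adjusted p of the difference = 4.63e-07), 1.69 and −0.11 for phf1 (adjusted p = 3.04e-07), and 1.8 and −0.27 for Col-0 (adjusted p = 1.93e-07). The pooled values were 0.98 ± 0.25 in phr1 phl1 (adjusted p = 0.00979), 0.95 ± 0.25 in phf1 (adjusted p = 0.0111) and 0.82 ± 0.26 in Col-0 (adjusted p = 0.0373). The genes that fell were MCM2 in phf1 (−0.65 ± 0.20, adjusted p = 0.0399) and PCNA2 in Col-0 (−0.55 ± 0.17, adjusted p = 0.0298). Differences between experiments were called in 5 of 40 genes in phr1 phl1, 3 in phf1 and 8 in Col-0, against 8.05%, 6.14% and 17.4% of all tested genes, and all were higher in B.

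The counts of called genes at high Pi were 0, 1 and 1 without the B1 libraries and 0, 0 and 0 without the B2 libraries in phr1 phl1, phf1 and Col-0, and 1 in Col-0 without the 6 libraries in doubt. Among 18 other genes of mitosis and cytokinesis 5 rose and 0 fell in each genotype. POK1 rose by 1.34 in phr1 phl1, 1.11 in phf1 and 1.3 in Col-0 (2.21 in B and −0.19 in A), AUR3 by 1.33, 0.95 and 1.03, and DEL3, an atypical E2F, by 1.37, 1.05 and 1.23 on the log2 scale. Of 19 other replication genes 0 rose, and 6 fell in phf1 (ORC4 by 1.11, FEN1 by 1.04, ICU2 by 0.71), 2 in Col-0 (ORC4 by 0.91, ORC3 by 0.87) and 0 in phr1 phl1.

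**Figure D4:**
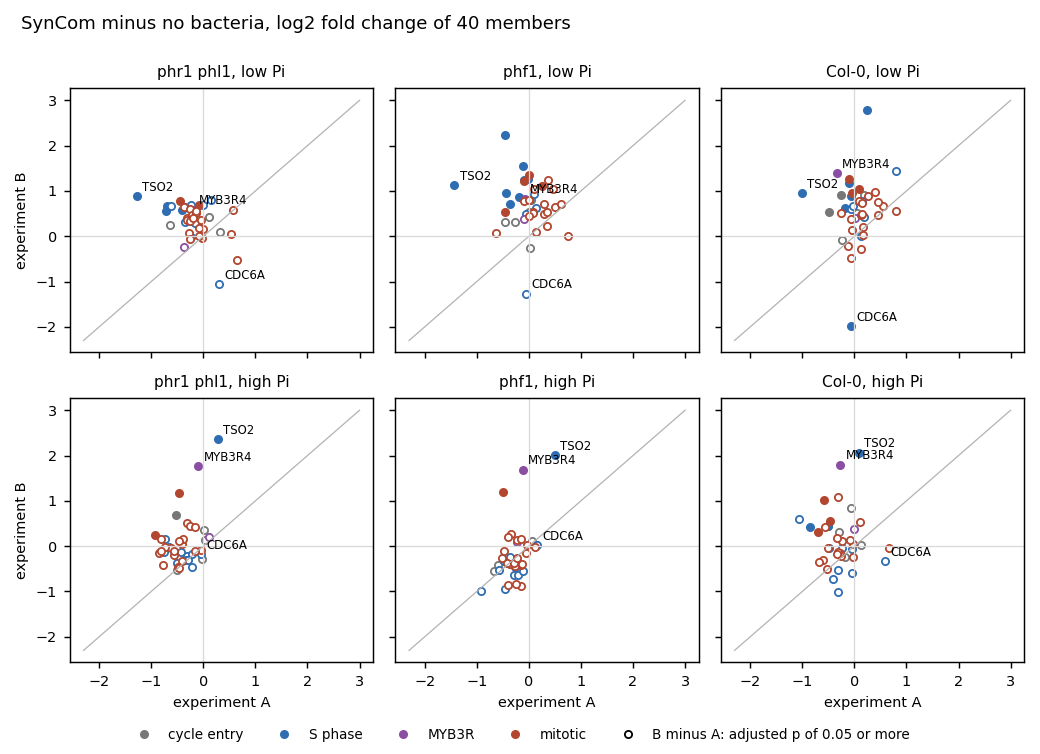
Log2 fold change with SynCom over no bacteria of the 40 genes in experiment A (x axis) and experiment B (y axis), at low Pi (top) and high Pi (bottom), in phr1 phl1, phf1 and Col-0. Filled points differed between experiments at an adjusted p under 0.05, and the line marks equal values. At low Pi in phf1 the 14 filled genes lie above the line, and in Col-0 CDC6A lies below it at −1.99 in B and −0.07 in A.

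The comparison of genotypes asks whether loss of PHR1 and PHL1 or of PHF1 alters these genes. At high Pi, over both bacterial treatments, 10 of the 40 genes rose in phr1 phl1 relative to Col-0 and 0 fell, against 1.83% and 1.01% of all tested genes. The fold change was positive for 38 of the 40, with medians of 0.53 for S-phase, 0.44 for mitotic and 0.01 for all tested genes, and 27 of the 40 had an unadjusted p under 0.05. Among all 19321 tested genes 10275 had a positive fold change and 3810 an unadjusted p under 0.05. MCM4 rose by 0.57 ± 0.14 on the log2 scale (adjusted p = 0.0155, n = 24 libraries per arm), MCM6 by 0.62 ± 0.17 (adjusted p = 0.0252), MCM2 by 0.54 ± 0.15 (adjusted p = 0.0291) and MCM5 by 0.52 ± 0.15 (adjusted p = 0.0403). CDKB1;1 rose by 0.66 ± 0.17 (adjusted p = 0.0179), CDKB2;2 by 0.44 ± 0.12 (adjusted p = 0.0292), CDC20.1, an activator of the anaphase-promoting complex, by 0.54 ± 0.15 (adjusted p = 0.0292) and CYCB1;1 by 0.62 ± 0.17 (adjusted p = 0.0307). AUR1 rose by 0.44 and CYCD3;1 by 0.54 ± 0.15 (adjusted p = 0.0307).

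CYCB1;1 had 2.08, 4.61 and 5.9 CPM in phr1 phl1 and 0.681, 2.96 and 6.33 CPM in Col-0 at high Pi with SynCom, and 2.12, 4.04 and 5.94 CPM in phr1 phl1 and 1.52, 2.28 and 4.58 CPM in Col-0 without bacteria (lowest, median, highest of 12). The medians of phr1 phl1 were the higher and the ranges overlapped. MCM5 had 5.69, 7.27 and 13.9 CPM in phr1 phl1 and 2.56, 5.72 and 13.9 CPM in Col-0 with SynCom, and 3.85, 11.7 and 20.6 CPM in phr1 phl1 and 0, 9.25 and 11.7 CPM in Col-0 without bacteria. The value of 0 was in B1 of Col-0 after +P, the library with the largest residual spread. CYCD3;1 had 8.7, 32 and 36.6 CPM in phr1 phl1 and 7.15, 20 and 27.1 CPM in Col-0 with SynCom, so the upper libraries of phr1 phl1 exceeded all of Col-0. PCNA1 had 0.63 (adjusted p = 0.0672) and KNOLLE 0.34 (adjusted p = 0.16), which did not pass.

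The S-phase median in this comparison was 0.50 in experiment B and 0.54 in experiment A, the mitotic median was 0.49 in B and 0.35 in A, and edgeR found 0 of the 40 genes differing between them. The 10 calls were at adjusted p values not far below 0.05: they were 0 without the A2 or the B2 libraries, 1 without B1, 8 without A1, 0 without a term for experiment and 7 without the 4 or 6 libraries in doubt. Of the marker lists 2 of 9 shoot meristem genes rose in phr1 phl1, and 0 of 7 root tip, 0 of 6 stomatal and 0 of 5 photosynthesis genes were called. Their summed levels overlapped: the shoot list was 114 to 301 CPM in phr1 phl1 and 121 to 261 CPM in Col-0 with SynCom.

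In phf1 at high Pi 2 genes rose relative to Col-0 and 0 fell, against 2.66% and 0.756% of all tested genes. They were the G2 and M kinases CDKB2;2 (0.46 ± 0.12, adjusted p = 0.0168) and CDKB2;1 (0.39 ± 0.12, adjusted p = 0.0489). The fold change was positive for 38 of 40 genes, 19 had an unadjusted p under 0.05, and the medians were 0.27 for S-phase and 0.38 for mitotic genes. Among all 19321 tested genes 10481 had a positive fold change and 3456 an unadjusted p under 0.05. The count of 2 called genes was 0 without the A1 or A2 libraries, 1 without B2, 5 without the 4 libraries in doubt and 8 without the 6.

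At low Pi with SynCom 4 genes rose in phr1 phl1 relative to Col-0 and 1 fell, against 14.1% and 13.6% of all tested genes. CDKA;1 rose by 0.27 ± 0.06 (adjusted p = 0.000358), CYCD3;1 by 0.60 ± 0.20 (adjusted p = 0.0186), PCNA2 by 0.44 ± 0.16 (adjusted p = 0.0292) and KNOLLE by 0.53 ± 0.20 (adjusted p = 0.0356), and MYB3R1 fell by 0.47 ± 0.13 (adjusted p = 0.003). CYCD3;1 had 14.9, 37.2 and 64.5 CPM in phr1 phl1 and 17.4, 24.6 and 29 CPM in Col-0, so phr1 phl1 spread past Col-0 at both ends. KNOLLE had 9.6, 33.7 and 49.7 CPM in phr1 phl1 and 10.9, 21.7 and 25.9 CPM in Col-0, again wider in phr1 phl1. The count of 5 was 3 without the B1 libraries and 2 without the B2 libraries or a term for experiment.

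In phr1 phl1 at low Pi with SynCom the libraries also stood apart by pre-treatment within experiment A. The mitotic score there averaged −0.53 in −P, 0.84 in +Phi and −0.77 in +P (2 libraries each), and in experiment B 0.36 in −P, 0.78 in +Phi and 0.45 in +P. The S-phase score in experiment A averaged −0.11 in −P, 0.62 in +Phi and −0.56 in +P. KNOLLE had 28.2 and 9.6 CPM in −P, 33.6 and 49.7 CPM in +Phi and 10.9 and 10.1 CPM in +P in experiment A, so its highest and lowest libraries were both in that experiment. The highest CYCD3;1 library, at 64.5 CPM, was likewise A2 of +Phi, and its lowest, at 14.9 CPM, A1 of −P. This split by pre-treatment was not tested.

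The fold change of phr1 phl1 over Col-0 differed between B and A in 12 of the 40 genes, all higher in B, against 6.27% of all tested genes. The median was 0.28 in B and −0.58 in A for S-phase genes and 0.64 in B and −0.31 in A for mitotic genes. KNOLLE had 1.02 in B and −0.27 in A (adjusted p of the difference = 0.0117), and MCM5 0.48 in B and −0.82 in A (adjusted p of the difference = 0.00984). The other 10 were MCM2, PCNA1, CYCA1;1, CYCB1;2, CYCB1;3, CYCB1;4, CDKB2;1, CDKB2;2, HINKEL and PLEIADE. In the pooled comparison 4 of 9 shoot markers, 2 of 6 stomatal and 4 of 5 photosynthesis markers rose in phr1 phl1 and 2 of 7 root tip markers fell. The summed root tip list was 50 to 116 CPM in phr1 phl1 and 64.8 to 128 CPM in Col-0, and the stomatal list 32.3 to 91.8 CPM in phr1 phl1 and 23.2 to 51.5 CPM in Col-0. Their part in the result was not tested.

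At low Pi without bacteria CYCD3;1 rose by 0.69 ± 0.21 (adjusted p = 0.0361) and PCNA2 by 0.60 ± 0.16 (adjusted p = 0.0158) in phr1 phl1 relative to Col-0, against 2.23% of all tested genes higher and 1.74% lower. The 2 calls were 0 without the B1 or B2 libraries or a term for experiment, 1 without A2, 4 without A1 or with DESeq2, and 4 or 5 without the 4 or 6 libraries in doubt. The fold change differed between experiments in 4 genes, all higher in B, against 1.03% of all tested genes: MYB3R4, TPX2 (a spindle assembly factor), HINKEL and PLEIADE. In phf1 relative to Col-0 at low Pi edgeR called 0 genes without bacteria (2 at an unadjusted p under 0.05, and 0 with DESeq2), against 2.03% and 0.714% of all tested genes. With SynCom it called 0 (1 at an unadjusted p under 0.05, and 0 with DESeq2), against 0.0414% and 0.0155%. Of all 19321 tested genes 3101 without bacteria and 1499 with SynCom had an unadjusted p under 0.05.

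**Figure D5:**
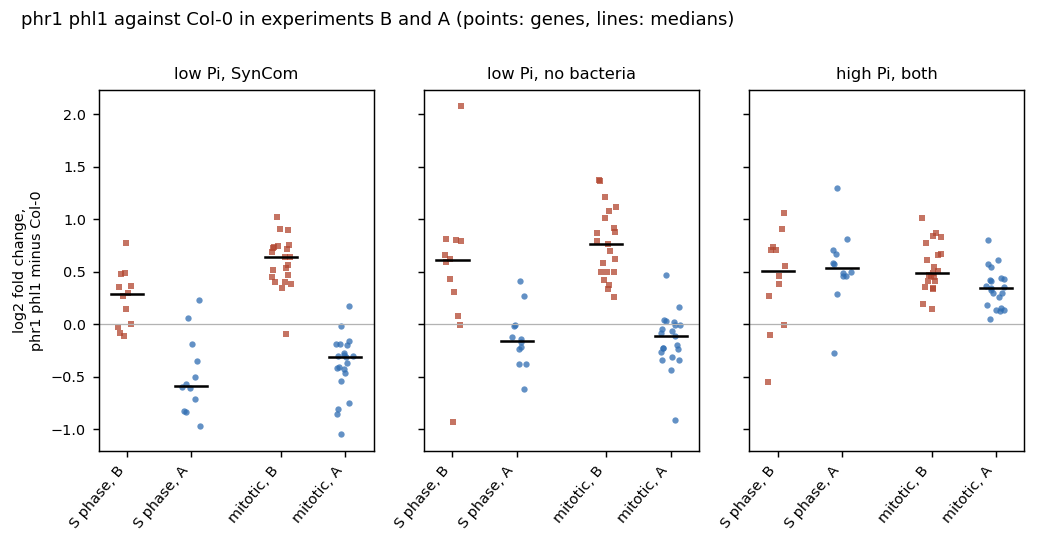
Log2 fold change of phr1 phl1 over Col-0 for the S-phase and mitotic genes in experiments B and A, in 3 panels: low Pi and SynCom, low Pi and no bacteria, and high Pi over both bacterial treatments. Points are genes and lines are medians. At low Pi with SynCom the mitotic median is 0.64 in B and −0.31 in A, while at high Pi it is 0.49 in B and 0.35 in A.

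Averaged over all groups, pre-treatment moved the 40 genes little. In phr1 phl1 at low Pi with SynCom the mitotic score averaged −0.09 in −P, 0.81 in +Phi and −0.16 in +P (n = 4 each). That split was not tested. Over all groups edgeR called 0 genes in −P relative to +P (14 at an unadjusted p under 0.05, and 1 with DESeq2), against 0.119% of all tested genes higher and 0.0776% lower, with 34 of 40 fold changes positive and a median of 0.19. The count of called genes was 2 without the A1 libraries. Positive were 20 of 21 mitotic genes (median 0.23), 9 of 12 S-phase genes (median 0.09) and 10100 of all 19321 tested genes. An unadjusted p under 0.05 was found for 10 mitotic genes, 2 S-phase genes and 2826 of all tested genes. In +Phi relative to +P 4 genes rose and 0 fell, against 7.64% and 7.14% of all tested genes, a share near that background. They were PLEIADE (0.36 ± 0.10, adjusted p = 0.00834), TPX2 (0.35 ± 0.10, adjusted p = 0.0105), KNOLLE (0.34 ± 0.10, adjusted p = 0.0108) and CYCD3;3 (0.21 ± 0.07, adjusted p = 0.0389). The count was 16 without the A1 libraries, 2 without A2 or B1 and 1 without B2. Positive were 18 of 21 mitotic genes (median 0.17), 5 of 12 S-phase genes (median −0.03) and 9240 of all 19321 tested genes. In the same comparison 5 of 9 shoot, 3 of 6 stomatal and 3 of 5 photosynthesis markers rose, and 0 of 19 other replication genes did. Within Col-0 at low Pi with SynCom (n = 4 libraries per arm) edgeR called 0 genes in −P, with fold changes between −0.49 and 0.49, and 0 in +Phi, with fold changes between −0.64 and 0.62. In both, 0 had an unadjusted p under 0.05 and DESeq2 called 0. All tested genes were called at 0.00518% higher and 0% lower in −P, and 2.97% higher and 3.52% lower in +Phi.

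Experiment B relative to experiment A had 6 of the 40 genes higher and 22 lower, against 35.3% and 36.8% of all tested genes (n = 72 libraries each). The 28 called genes are a share near that background. Of the 12 S-phase genes 11 were lower in B, with a median log2 fold change of −0.48. MCM6 was lower by 0.81 ± 0.09 in size (log2 fold change −0.81, adjusted p = 1.46e-13), and the values were −0.61 for MCM2 (adjusted p = 1.26e-10), −0.75 ± 0.11 for PCNA1 (adjusted p = 3.76e-09) and −0.50 for TSO2. CDC6A was the exception, at 1.45 ± 0.11 (adjusted p = 2e-24). It had 8.4, 15.3 and 17.7 CPM in B and 1.75, 2.66 and 3.74 CPM in A in Col-0 at low Pi without bacteria, with no overlap, but 1.72, 2.95 and 7.91 CPM in B and 1.75, 3.07 and 4.34 CPM in A in phr1 phl1 at low Pi with SynCom, with full overlap.

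Mitotic genes were split, with 3 higher and 6 lower in B and a median of −0.06. CYCB2;3 (0.43, adjusted p = 1.28e-05), CDKB2;1 (0.31, adjusted p = 3.78e-05) and AUR1 (0.17) were higher, and CDKB1;1 (−0.43, adjusted p = 1.71e-05) and CYCA1;1 (−0.43, adjusted p = 0.000257) were among the lower. MYB3R4 was higher in B by 0.34 ± 0.11 (adjusted p = 0.0032) and MYB3R1 had −0.29 (adjusted p = 4.11e-07). Of the 5 entry genes CDKA;1 was higher (0.22 ± 0.03, adjusted p = 5.06e-13) and the other 4 lower, E2FC most (−0.68 ± 0.07, adjusted p = 1.77e-14). The S-phase score averaged −0.16 ± 0.4 in B and 0.16 ± 0.47 in A, and the mitotic score −0.01 in B and 0.01 in A (n = 72 each). Of 19 other replication genes 14 were lower in B and 0 higher, and all 5 tested leaf photosynthesis markers were higher. What separates the experiments beyond their label is not given in the sources used here.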

How the data were processed

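The authors deposited raw counts per gene for every library, with no normalisation. The submitters' processing notes list HTSeq 0.6.1p1, TopHat2 2.1.1, cutadapt 1.3 and CASAVA 1.8, and the build TAIR10, without their roles or order. Per the labels' protocols the libraries are poly(A) and not stranded. The 40 genes and all gene lists were chosen with earlier results of these data known, and lists are described by counts and medians, with no set test.

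Genes were filtered with filterByExpr (minimum count 10), which left 19321 of 27206, and scaled by TMM (factors 0.823 to 1.19). All 144 libraries entered 1 quasi-likelihood fit in edgeR 4.0.16 (R 4.3.3) with 36 group means and a term for experiment. Contrasts averaged over pre-treatments, so an arm held 12 libraries (Pi, SynCom and genotype at low Pi; 24 for genotype at high Pi, 48 for pre-treatment over all groups). A gene was called at an adjusted p under 0.05 (Benjamini-Hochberg over all tested genes of a contrast), and the SE was the fold change divided by the root of the F statistic. Values in experiments B and A (6 libraries per arm) and their difference came from a fit of 72 means, and calls in 1 experiment used the same threshold. CPM used TMM-normalised library sizes and log2 CPM a prior count of 2. CPM is not per length, so levels are compared only within a gene. Scores have no test.

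By rule, up to 4 genes per role with the smallest p in a comparison carry fold change, SE and adjusted p, as do PCNA1, MCM5, CYCB1;1, KNOLLE and CYCD3;1, whose library values are given, and genes whose result turned on 1 experiment. CDT1A and CDKB2;2 were given library values after their values were seen. Up to 3 genes of each other list are named. The model was also run on counts simulated from its own fitted means and spread. That fit holds treatment effects equal in both experiments, so the run does not cover effects that differ between them. Same-numbered libraries of different groups did not deviate together on average (mean correlation of deviations 0.0094 in A and 0.0092 in B over 630 pairs of groups each). Single pairs varied, with a correlation over 0.1 in 16.98% of pairs in A and 27.62% in B, and a lowest value of −0.46 in A and −0.40 in B. No 2 of 216 replicate pairs held identical counts. The alternatives were DESeq2 size factors in edgeR, no filter, DESeq2 1.42.0, no experiment term, the replicate numbers as a block and leaving out A1, A2, B1 or B2. After seeing the data, fits that leave out the 4 or 6 doubtful libraries were added. Promoter windows came from the RefSeq TAIR10.1 genome and annotation.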

Additional observations from a re-analysis of the deposited data

Results flagged for a closer look

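Single libraries stood far from the rest of their group in 2 of 72 score groups of 4 and in 10 of 96 groups of 6 for TSO2, MYB3R4, PCNA1 and CDC6A, where chance flags about 1 in 20 groups. The mitotic score was 0.3811 in phf1, +Phi, low Pi, SynCom, A1 (others 0.5758 to 0.6074) and −0.751 in phr1 phl1, +Phi, high Pi, SynCom, A1 (others 0.1915 to 0.3686). At low Pi with SynCom, phr1 phl1 library +Phi A2 had 75.12 CPM of TSO2 (others of experiment A 6.365 to 20.08) and 20.42 CPM of PCNA1 (others 0.5786 to 5.943), phf1 library −P A1 had 4.068 CPM of MYB3R4 (others 10.82 to 14.31), and Col-0 library −P B2 had 33.22 CPM of TSO2 (others of experiment B 19.48 to 23.26). At high Pi with SynCom in experiment B, MYB3R4 was at 79.39 CPM in phr1 phl1 −P B2 (others 21.38 to 41.8) and 43.51 CPM in Col-0 −P B2 (others 20.62 to 26.22), and CDC6A at 18.28 CPM in phr1 phl1 +Phi B2 (others 3.348 to 8.148). Without bacteria, MYB3R4 was at 6.831 CPM in phr1 phl1 +Phi A1 at low Pi (others 11.16 to 12.75), PCNA1 at 6.8 CPM in phf1 +Phi B2 at high Pi (others 2.71 to 3.586), and TSO2 at 37.87 CPM in Col-0 +Phi A1 at high Pi (others 12.84 to 21.94).

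The effect of the same contrast differed between experiments B and A (interaction test in edgeR, adjusted p under 0.05). For SynCom over no bacteria it differed in 7 genes in phr1 phl1, 14 in phf1 and 12 in Col-0 at low Pi, and in 5, 3 and 8 genes at high Pi. For low over high Pi with SynCom it differed in 1 gene in phr1 phl1, 1 in phf1 and 3 in Col-0, and without bacteria in 4 genes in phf1 and 2 in Col-0. For phr1 phl1 over Col-0 at low Pi it differed in 12 genes with SynCom and 4 without. The Pi response differed between SynCom and no bacteria in 9 genes in phf1 and 4 in Col-0, and between phr1 phl1 and Col-0 with SynCom in 3 genes.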

How the results depend on the processing

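Of 1811 fold changes of single genes under an alternative, 1478 kept direction and side of the threshold, 321 were no longer called, 8 became called and 4 changed sign. The 4 were PCNA1 for low over high Pi in phf1 without bacteria (−0.0204 without A1, and up to 0.824 without B2), TSO2 for SynCom at low Pi in Col-0 (0.10 without A1, down to −0.654 without B2) and TSO2 in phr1 phl1 (0.157 without A1, 0.0733 without A2, down to −0.657 without B1), and the cause was not tested. The replicate numbers share only a number. With the numbers as a replicate block, 27 genes were called for low over high Pi with SynCom in Col-0 as without it, the count for phf1 over Col-0 at high Pi was 1 in place of 2, and 2 calls of single genes were lost. Score differences moved by at most 0.197, which is under the SD of single libraries within groups, a wide yardstick for a difference of means. With a prior count of 0.5 in place of 2, 3 of the 36 changed sign, and all 3 were near 0 in the reported analysis: SynCom over no bacteria at low Pi in phr1 phl1 (−0.0125 for S phase and 0.0194 for mitosis) and phr1 phl1 over Col-0 at low Pi with SynCom (0.0213 for mitosis).

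Counts of called genes moved by over 1.5 times as follows. With DESeq2 they were 2 (from 1) for low over high Pi in phf1 without bacteria, 10 (from 5) for SynCom at low Pi in phf1, 4 (from 2) for phr1 phl1 over Col-0 at low Pi without bacteria and 1 (from 0) for −P over +P. Without an experiment term they were 9 (from 14) for low over high Pi with SynCom in phr1 phl1, 3 (from 5) and 0 (from 1) for SynCom at low Pi in phf1 and phr1 phl1, 1 (from 2) for phf1 over Col-0 at high Pi, 0 (from 2), 2 (from 5) and 0 (from 10) for phr1 phl1 over Col-0 at low Pi without bacteria, with SynCom and at high Pi, 2 (from 4) and 3 (from 9) for the interaction of Pi and SynCom in Col-0 and phf1, and 1 (from 3) for the Pi response of phr1 phl1 against Col-0. DESeq2 size factors and no filter each gave 1 (from 2) for phf1 over Col-0 at high Pi. Without 4 libraries that count was 5, phr1 phl1 over Col-0 at low Pi without bacteria 4, and the interaction in phf1 3. Without 6 libraries they were 8, 5 and 4, low over high Pi in phf1 without bacteria 3, and SynCom at high Pi in Col-0 1.

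Leaving out A1, A2, B1 or B2 gave 21 to 25 called genes for low over high Pi with SynCom in Col-0, 14 to 24 in phf1 and 0 to 14 in phr1 phl1, and 0 to 2 in phf1 without bacteria. It gave 3 to 7 for SynCom at low Pi in Col-0, 0 to 11 in phf1 and 0 to 1 in phr1 phl1, and at high Pi 0 to 3, 0 to 3 and 0 to 2. For phr1 phl1 over Col-0 it gave 2 to 6 at low Pi with SynCom, 0 to 4 without bacteria and 0 to 8 at high Pi, and 0 to 2 for phf1 over Col-0 at high Pi. The interaction of Pi and SynCom had 1 to 3 in Col-0 and 1 to 15 in phf1, and the Pi response of phr1 phl1 against Col-0 0 to 5. Pre-treatment had 0 to 2 for −P and 1 to 16 for +Phi, and experiment B over A 21 to 28. The experiment contrast could not be fitted without its term or with the block.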
